A study of Mus musculus with 9 samples.

Results

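The interferon regulatory factors (IRFs) are transcription factors that share a DNA-binding domain, and 8 of them were followed here: Irf1, Irf2, Irf3, Irf4, Irf5, Irf7, Irf8 and Irf9. The members were taken by gene symbol from a table of 25159 genes, and where a gene had several transcript rows the row was chosen by its total over all 9 libraries, the highest being used. That total is the measured value in the choice, and it does not use the difference between groups. All 8 members passed the filter on low counts, which left 11244 genes.

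IRFs bind DNA elements built around the letters GAAA, and most of them act in the response to interferons, the secreted proteins that put cells into an antiviral state. IRF3 and IRF7 lie below sensors of foreign nucleic acid, IRF5 lies below Toll-like receptors, IRF9 is the DNA-binding part of the complex that answers type I interferon, and IRF1 is induced by interferon gamma and opposed by IRF2 at shared sites. IRF4 and IRF8 are the lymphoid and myeloid branch of the family. IRF4 is induced by the T cell receptor and, with BATF and JUN proteins, binds at genes of activated and effector T cells, while IRF8 is best known from B cells, dendritic cells and macrophages.

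Bulk RNA sequencing covered 9 libraries of naive CD4+ T cells sorted from the spleens of C57BL/6 mice, 3 libraries in each of 3 groups. All cells were kept on plates coated with 1 µg/ml of an antibody to CD3e, which engages the T cell receptor complex. Wild-type cells had in addition 19 µg/ml of an isotype control antibody in one group and 19 µg/ml of an antibody to CD40L, the T cell surface ligand of CD40, in another. The third group, titled KO with the genotype label cre, came from mice described as lacking CD40L in T cells and had 19 µg/ml of the isotype antibody. The Cre driver, the part of the gene deleted, the age and sex of the animals and the duration of culture were not given in the sources used here. Nor do the labels say that replicates were separate animals or cultures, so the p-values cover only how far these libraries differ, part of which may be technical.

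Total counts per library ran from 5316396 to 15565319. The lowest total belonged to anti-CD40L replicate 3, which had a count for 11672 genes against 14289 to 17427 genes in the others, so genes of few counts are measured least well there. Levels are given in CPM, counts scaled to the size of each library. The targeted gene, Cd40lg, stood at 142 to 189 CPM in wild-type isotype libraries, 109 to 163 CPM under anti-CD40L and 136 to 150 CPM in the libraries labelled KO, so its level over the whole transcript does not set the KO group apart (log2 fold change against wild type -0.17, SE 0.13, adjusted p = 0.933, edgeR quasi-likelihood test with Benjamini-Hochberg adjustment). The summed level of 8 CD4 T cell markers was 3995 to 4421, 4025 to 4169 and 3915 to 4194 CPM in the same order of groups. KO replicate 1 stood apart in interferon-induced genes and was the only library with counts of S100a8 (2.71 CPM) and S100a9 (4.66 CPM), which mark neutrophils. Each fold change below comes from edgeR's quasi-likelihood test on all 9 libraries with Benjamini-Hochberg adjustment over the 11244 genes, and a gene is called where the adjusted p is under 0.05.

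Binding CD40L on wild-type cells was accompanied by a rise in Irf4 and by lower Irf1, Irf7 and Irf9, while Irf2, Irf3, Irf5 and Irf8 did not pass the test. Of the 8 members, 4 were called, against 9.4 percent of all genes tested. The called members were 1 higher, against 2.93 percent of all genes, and 3 lower, against 6.47 percent. In 5 members the 3 anti-CD40L libraries did not overlap the 3 isotype libraries, which held for 32.6 percent of all genes. Irf4 was the 1 wholly higher, against 15.4 percent, and Irf1, Irf2, Irf7 and Irf9 were the 4 wholly lower, against 17.2 percent. The count of called members was 2 without wild-type isotype replicate 1 or 3 or anti-CD40L replicate 1 or 3. The median log2 fold change was -0.29 over the members and -0.01 over all genes tested. In bulk RNA a smaller number of cells that express a gene and less RNA per cell cannot be told apart.

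**Figure D1:**
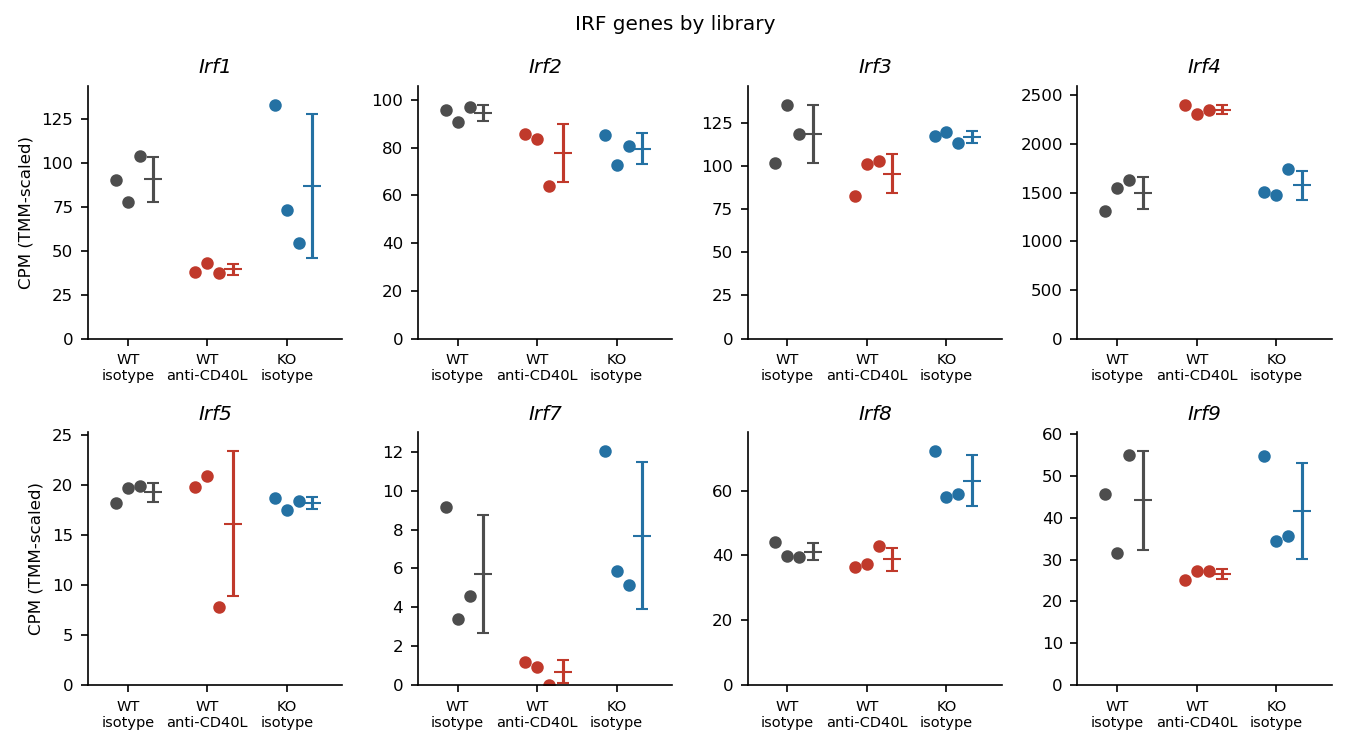
CPM of each member (y axis, 1 panel per gene, linear from 0) in the 9 libraries, by group on the x axis. Points are libraries, and lines with bars are the mean and SD of 3 libraries. Irf4 is higher in all 3 anti-CD40L libraries, Irf1, Irf7 and Irf9 are lower there, and Irf8 is higher in the 3 libraries labelled KO.

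Irf4 was the most abundant member. Its gene spans chr13:30749233-30766981 (GRCm38, as for all positions here). It stood at 1310.25, 1551 and 1633 CPM in wild-type isotype replicates 1 to 3, at 2405, 2309 and 2347 CPM under anti-CD40L, and at 1507, 1476 and 1749 CPM in the libraries labelled KO. All 3 anti-CD40L libraries lay above all 6 others, and the isotype groups overlapped. The rise over wild-type isotype was 1.57-fold (log2 fold change 0.65, SE 0.10, adjusted p = 0.0011), and over the libraries labelled KO it was 1.49-fold (log2 fold change 0.58, SE 0.10, adjusted p = 0.00273). Both calls held in 17 of 17 alternative analyses. Between the isotype groups the log2 fold change was 0.07 (SE 0.10, adjusted p = 0.96).

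Irf8, the closest relative of Irf4, followed another order. Its level was 44.1, 39.8 and 39.6 CPM on wild-type isotype, 36.3, 37.3 and 42.8 CPM under anti-CD40L, and 72.2, 58.0 and 59.0 CPM in the libraries labelled KO. The KO libraries all lay above the 6 wild-type libraries, whose groups overlapped. The difference between the KO and wild-type isotype libraries was 1.53-fold (log2 fold change 0.61, SE 0.12), with an unadjusted p of 0.000141 that only 5 genes undercut, but it was not called (adjusted p = 0.195). DESeq2 gave an adjusted p of 0.00237 for it, limma-voom with quality weights gave 0.0193 and an unfiltered edgeR fit 0.00185, and the other 14 of 17 alternatives left it uncalled. Against anti-CD40L the same KO libraries passed the test: Irf8 was 1.63-fold lower under anti-CD40L (log2 fold change -0.71, SE 0.12, adjusted p = 0.00273), in 17 of 17 alternatives. This last comparison is also the test of the difference between the effect of anti-CD40L and the difference of the KO group. Both are measured from wild-type isotype. The groups of this comparison differ in both genotype and antibody. Between anti-CD40L and wild-type isotype the log2 fold change of Irf8 was -0.09 (SE 0.12, adjusted p = 0.662).

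Markers of cells that are known for Irf8 were summed over their lists. The 8 dendritic cell markers summed to 3.33 to 6.18 CPM on wild-type isotype, 6.09 to 9.36 CPM under anti-CD40L and 6.29 to 10.2 CPM in the libraries labelled KO, most of it Tcf4. Clec9a was at 0 in all 9 libraries, and 2 of the 8 markers had enough counts to be tested, neither of them called in any comparison. The 13 B cell markers summed to 26.3 to 62.6, 22.9 to 35.9 and 18.1 to 53.6 CPM in the same order of groups. The B cell sums overlapped between the groups. The 10 monocyte, macrophage and neutrophil markers summed to 85.0, 80.8 and 92.2 CPM on wild-type isotype, 46.1, 50.0 and 52.4 CPM under anti-CD40L and 105, 60.2 and 57.4 CPM for the KO label, most of it Ctss. KO replicate 1, the highest library for Irf8, was also the highest in that sum, and KO replicates 2 and 3 were below wild-type isotype in it. The dendritic cell sum was higher in all 3 KO libraries than in wild-type isotype, as Irf8 was, the nearest values being 6.29 and 6.18 CPM. Under anti-CD40L that sum ran from 6.09 to 9.36 CPM, while Irf8 overlapped wild-type isotype. The part of these cells in the Irf8 difference was not tested.

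The DNA upstream of the first Irf8 start is shown because it holds a pair of elements known from genes induced by interferon gamma. It is the plus strand at chr8:120736108-120736357 (GRCm38.p6, RefSeq), the 250 bases before the first annotated start of the gene, which spans chr8:120736358-120756694. Capitals mark matches to GAS, the gamma-activated sequence of interferon gamma signalling, searched as TTCNNNGAA on both strands.
Irf8: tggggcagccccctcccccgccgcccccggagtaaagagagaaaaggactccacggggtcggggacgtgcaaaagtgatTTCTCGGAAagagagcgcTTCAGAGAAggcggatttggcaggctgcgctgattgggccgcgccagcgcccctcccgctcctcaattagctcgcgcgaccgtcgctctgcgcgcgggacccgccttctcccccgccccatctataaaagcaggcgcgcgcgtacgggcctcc
The matches lie at -171 to -163 and -153 to -145 from that start. The search window ran from 250 bases before to 50 bases after a start, and only the upstream bases are printed. Of 32851 RefSeq windows of that kind, 8.298 percent hold this element on either strand. Irf8 has another annotated start, at position 120738639, where the transcript row counted here begins, and its window held no match to any element searched. The match describes the letters only.

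Of Irf1 and Irf2, the activator and the repressor that compete for the same sites, Irf1 was called lower under anti-CD40L and Irf2 was not, and the difference between their changes was not tested. Irf1 stood at 90.05, 77.7 and 103 CPM in wild-type isotype replicates 1 to 3, at 37.6, 42.8 and 37.5 CPM under anti-CD40L, and at 133, 72.9 and 54.1 CPM in the libraries labelled KO. Every anti-CD40L library lay below every isotype library, and the KO libraries ran from below to above the wild-type isotype range. Irf1 was 2.29-fold lower under anti-CD40L than on isotype (log2 fold change -1.20, SE 0.25, adjusted p = 0.0107) and 2.18-fold lower than in the libraries labelled KO (log2 fold change -1.13, SE 0.25, adjusted p = 0.0155). The first call was lost without wild-type isotype replicate 3 (adjusted p = 0.0501), anti-CD40L replicate 1 (0.111) or anti-CD40L replicate 3 (0.0846), and the second without anti-CD40L replicate 1 (0.139) or 3 (0.121). Irf1 has a transcript row with another end, whose counts were 48.0 to 55.6 percent of the row used.

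Irf2 was at 96.0, 90.7 and 97.2 CPM on wild-type isotype, 85.8, 83.6 and 64.0 CPM under anti-CD40L, and 85.4, 72.7 and 80.7 CPM in the libraries labelled KO. Both other groups lay wholly below wild-type isotype and overlapped each other. Neither difference was called: the log2 fold change was -0.27 under anti-CD40L (SE 0.11, adjusted p = 0.138) and -0.25 for the KO label (SE 0.11, adjusted p = 0.823). The ratio of Irf1 to Irf2, per kilobase of transcript, was 1.11 ± 0.123 (SD, n = 3) on wild-type isotype, 0.598 ± 0.0854 under anti-CD40L and 1.26 ± 0.523 for the KO label.

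The upstream sequences of this pair are shown because their genes carry elements of interferon gamma signalling and, in Irf2, of IRFs themselves. Both are plus strand, 250 bases before the first annotated start (GRCm38.p6, RefSeq): chr11:53769764-53770013 for Irf1, whose gene spans chr11:53770014-53778374, and chr8:46739495-46739744 for Irf2, whose gene spans chr8:46739745-46847458. Capitals mark matches to GAS (TTCNNNGAA), the core of the interferon-stimulated response element ISRE (GAAA, then any 2 bases, then GAAA) and the ETS-IRF composite element (GGAA, then any 2 bases, then GAAA).
Irf1: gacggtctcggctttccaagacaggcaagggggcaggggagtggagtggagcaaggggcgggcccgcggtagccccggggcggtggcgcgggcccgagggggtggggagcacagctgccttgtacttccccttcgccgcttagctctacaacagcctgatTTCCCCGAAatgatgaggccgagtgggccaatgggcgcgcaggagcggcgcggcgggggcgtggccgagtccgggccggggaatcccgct
Irf2: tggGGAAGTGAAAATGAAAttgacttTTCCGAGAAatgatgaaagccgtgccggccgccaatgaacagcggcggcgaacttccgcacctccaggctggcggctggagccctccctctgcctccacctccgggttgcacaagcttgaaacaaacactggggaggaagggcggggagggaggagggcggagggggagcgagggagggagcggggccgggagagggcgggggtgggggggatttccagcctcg
Irf1 has 1 GAS match, at -90 to -82. Irf2 has a GAS match at -224 to -216 and, overlapping each other, an ETS-IRF match at -247 to -238 and an ISRE match at -241 to -232. Over all 32851 windows, read on both strands, 3.443 percent hold the ISRE core and 2.715 percent the ETS-IRF element. The same search with AP-1 (TGANTCA, 7.808 percent of windows), NF-kB (GGGA, any base, TTTCC, 0.4109 percent) and the AP-1-IRF composites, GAAA directly before TGANTCA (0.1248 percent) or GAAA placed 4 bases after it (0.1187 percent), found no match in any member's window. None of the elements was found in the windows of Irf3, Irf4, Irf5, Irf7 and Irf9. Nor was any found in the window of the other annotated start of Irf1, at position 53770473. Each element was searched only in the letters given, so variant sites were not looked for. The windows of Irf5 and Irf7 were set on starts at 29526625 and 141266424, inside the spans of these genes. The 250 bases upstream of the full span of either gene were therefore not searched in full.

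Irf9 (chr14:55603985-55610030), a subunit of the type I interferon complex that also holds STAT2, was at 45.8, 31.6 and 55.1 CPM on wild-type isotype, 25.2, 27.2 and 27.3 CPM under anti-CD40L, and 54.8, 34.5 and 35.6 CPM in the libraries labelled KO. Anti-CD40L gave the lowest 3 of the 9 values, and the isotype groups overlapped. The fall against wild-type isotype was 1.66-fold (log2 fold change -0.73, SE 0.21, adjusted p = 0.0445), and the call was the least stable of the 4, holding in 9 of 17 alternatives. It was lost on leaving out wild-type isotype replicate 1 (adjusted p = 0.124) or 3 (0.178), KO replicate 2 (0.0601), or any anti-CD40L replicate (0.127, 0.0733 and 0.101 for replicates 1 to 3). Against the libraries labelled KO the log2 fold change was -0.64 (SE 0.21) and was not called (adjusted p = 0.0855), although the groups did not overlap. DESeq2 (0.0397) and the fit without the low-count filter (0.000513) called it.

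Irf7 (chr7:141263183-141266499), which amplifies the type I interferon response and is itself induced by it, had the fewest reads of the 8 on the rows used. An Irf5 row that was not used, described below, held fewer, 140 in total against 469.5 for Irf7. The deposited counts were 101.5, 36 and 40 on wild-type isotype, 12.5, 8.5 and 0 under anti-CD40L, and 110.5, 80 and 80.5 in the libraries labelled KO. As levels these were 9.14, 3.42 and 4.59 CPM, then 1.17, 0.913 and 0 CPM, then 12.0, 5.86 and 5.15 CPM. The 0 came from the shallowest library, where 3 counts, the limit that a count of 0 allows, correspond to 0.573 CPM. All 3 anti-CD40L libraries lay below all others. The fitted difference was 7.07-fold against wild-type isotype (log2 fold change -2.82, SE 0.61, adjusted p = 0.0122) and 9.31-fold against the libraries labelled KO (log2 fold change -3.22, SE 0.60, adjusted p = 0.0055). The first call was lost without wild-type isotype replicate 1 (adjusted p = 0.0608), the library with the highest Irf7 of its group, and the second held in 17 of 17 alternatives. Between the isotype groups the log2 fold change was 0.40 (SE 0.47, adjusted p = 0.955), and -0.06 without KO replicate 1.

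Irf3 (chr7:44997648-45002848), the constitutively made partner of Irf7 below the nucleic acid sensors, moved less. It was at 102, 136 and 119 CPM on wild-type isotype, 82.7, 101 and 103 CPM under anti-CD40L, and 117, 120 and 113 CPM in the libraries labelled KO. The wild-type groups overlapped through 1 isotype library, and the KO libraries lay above all anti-CD40L libraries. The log2 fold change under anti-CD40L was -0.32 against wild-type isotype (SE 0.11, adjusted p = 0.0947) and -0.29 against the libraries labelled KO (SE 0.11, adjusted p = 0.144), neither of them called. Irf3 was called in 1 of 17 alternatives of each comparison, without the low-count filter against wild-type isotype (adjusted p = 0.0384) and by limma-voom with quality weights against the libraries labelled KO (0.0400).

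Irf5 (chr6:29526130-29541869), which acts below Toll-like receptors in myeloid and B cells, was at 18.2, 19.8 and 20.0 CPM on wild-type isotype, 19.8, 20.9 and 7.83 CPM under anti-CD40L, and 18.7, 17.6 and 18.4 CPM in the libraries labelled KO. All groups overlapped, and the low value came from the shallowest library. The last exon of the row used, chr6:29541616-29541871, lies wholly inside Tnpo3 (chr6:29540827-29609887), which is read from the opposite strand, so reads of the 2 genes may not be separated. The row that ends before Tnpo3 held 30.5, 25 and 17 counts on wild-type isotype, 16, 8 and 0 under anti-CD40L, and 6, 22.5 and 15 for those labelled KO. The row used held 174 to 208 counts in the wild-type isotype libraries. With the row that ends before Tnpo3, an alternative added after the data were seen, the log2 fold change under anti-CD40L was -1.47 (SE 0.65, adjusted p = 0.167) in place of -0.21 (SE 0.25, adjusted p = 0.636). On the row used it was 0.09 without anti-CD40L replicate 3. The level of Irf5 is therefore uncertain in every group.

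**Figure D2:**
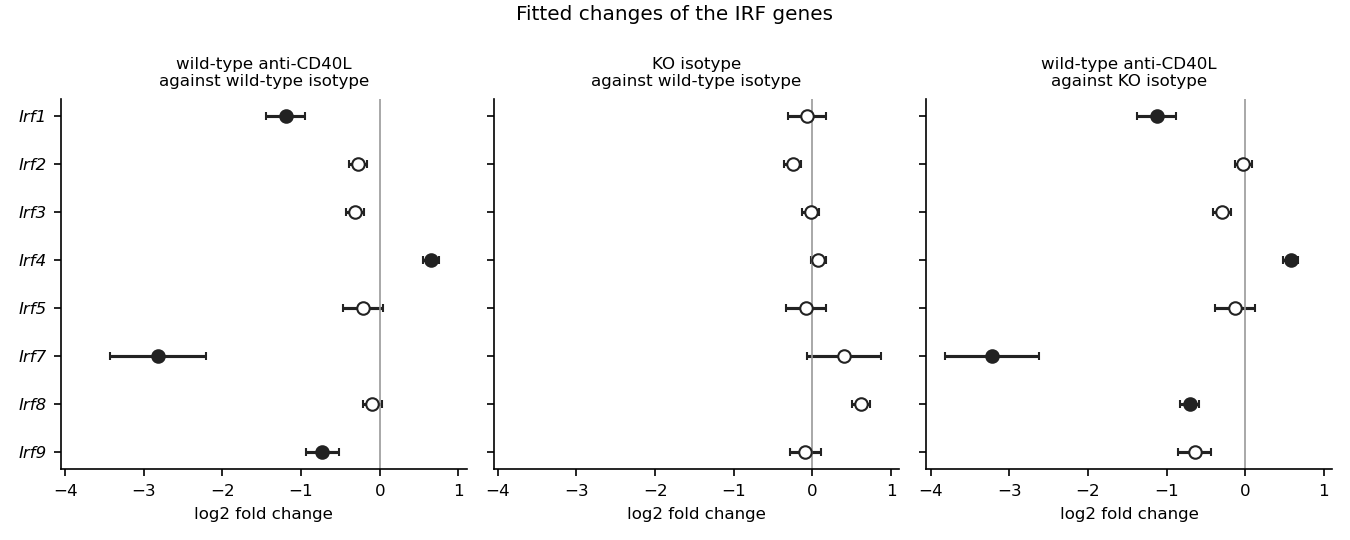
Log2 fold change of each member (x axis, points with SE bars) in the 3 comparisons, from edgeR's fit. Filled points have an adjusted p under 0.05. Irf4 is called higher and Irf1 and Irf7 lower under anti-CD40L against both isotype groups, Irf9 against wild type alone, and Irf8 against the KO group alone.

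Between the libraries labelled KO and wild-type isotype no member was called, and 0 percent of all genes were. At an unadjusted p under 0.05 there were 2 members, Irf8 and Irf2, and 649 genes (5.77 percent). In 2 members the groups did not overlap, against 15.2 percent of all genes: Irf8 lay wholly higher and Irf2 wholly lower, against 7.62 percent of all genes in either direction. DESeq2 called 39 genes and limma-voom with quality weights 32, Irf8 among them in both. The median log2 fold change was -0.05 over the members and 0.00 over all genes. Irf1, Irf3, Irf4, Irf5 and Irf9 had log2 fold changes of -0.07 (SE 0.24), -0.02 (SE 0.11), 0.07 (SE 0.10), -0.08 (SE 0.25) and -0.09 (SE 0.20). With the row of few counts that ends before Tnpo3, that of Irf5 was -1.08 (SE 0.60, adjusted p = 0.895). KO replicate 1 was the highest of its group for 6 of the 8 members, all except Irf3 and Irf4.

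Between anti-CD40L and the libraries labelled KO, groups that differ in both genotype and antibody, 4 members were called, against 6.84 percent of all genes. Irf4 was the 1 called higher, against 1.8 percent of all genes, and Irf1, Irf7 and Irf8 were the 3 called lower, against 5.04 percent. The groups did not overlap in 6 members, against 26.2 percent of all genes. Irf4 was the 1 wholly higher, against 10.3 percent, and the 5 wholly lower, against 15.9 percent, were Irf1, Irf3, Irf7, Irf8 and Irf9. The median log2 fold change was -0.47 over the members and -0.01 over all genes. The comparison shares its anti-CD40L libraries with the first and its KO libraries with the other, so the 3 sets of values are not independent.

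Per kilobase of transcript, the scale on which genes can be set side by side, Irf4 led in every group. In wild-type isotype libraries it was at 315 ± 35.3 CPM per kilobase (SD, n = 3), followed by Irf3 at 58.5 ± 8.25, Irf1 at 42.3 ± 6.02, Irf2 at 37.9 ± 1.37, Irf8 at 18.1 ± 1.12, Irf9 at 14.9 ± 3.99, Irf5 at 11.4 ± 0.573 and Irf7 at 2.98 ± 1.58. Neighbours overlapped between Irf1 and Irf2, between Irf8 and Irf9, and between Irf9 and Irf5, so their order is not resolved by these libraries. The value of Irf5 is from the row that overlaps Tnpo3, so its place in the order, also beside Irf7, is uncertain. On anti-CD40L, Irf4 was at 494 ± 10.2 CPM per kilobase, Irf3 at 47.1 ± 5.53, Irf2 at 31.2 ± 4.80, Irf1 at 18.4 ± 1.42 and Irf8 at 17.1 ± 1.54. Irf1 lay below Irf2 with no overlap under anti-CD40L, while the 2 overlapped on wild-type isotype. In the libraries labelled KO, Irf8 at 27.8 ± 3.47 CPM per kilobase overlapped Irf2 at 31.9 ± 2.57, while Irf1 at 40.5 ± 19.3 spread over the range of both neighbours.

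Irf4 held 60.3 to 64.3 percent of the summed level of the 8 members per kilobase in wild-type isotype libraries, 77.4 to 79.6 percent under anti-CD40L and 58.8 to 69.0 percent in the libraries labelled KO. The anti-CD40L libraries lay above all others. The sum of the other 7 members was 186 ± 8.55 CPM per kilobase (SD, n = 3) on wild-type isotype, 133 ± 8.07 under anti-CD40L and 187 ± 30.8 for the KO label. The ratio of Irf4 to Irf8 was 17.5 ± 2.91, 29.1 ± 2.75 and 12.1 ± 2.08 in the same order. That ratio did not overlap between the 3 anti-CD40L libraries and the 6 others.

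**Figure D3:**
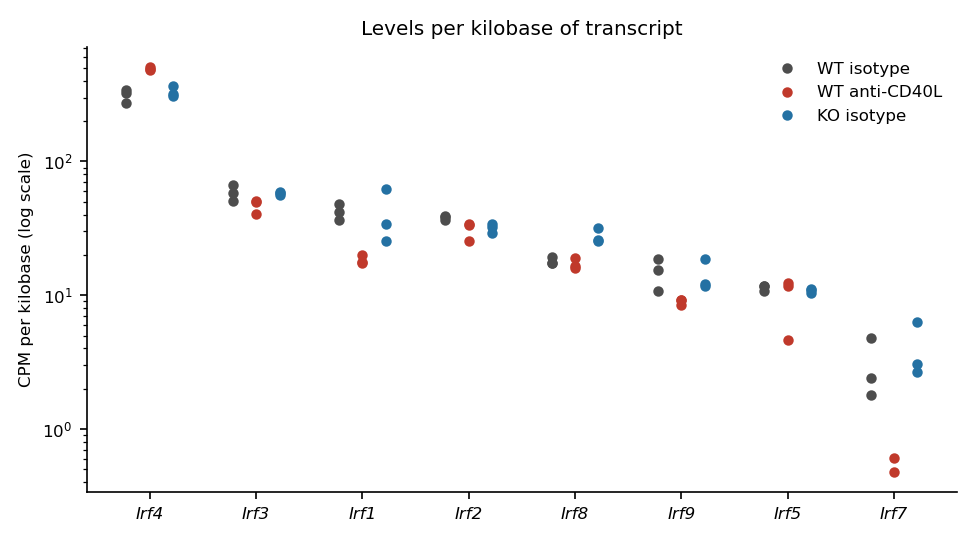
CPM per kilobase of transcript (y axis, log scale) of the 8 members in the 9 libraries, coloured by group. Irf4 is the highest gene in every library, and Irf7 the lowest on the rows used. The Irf5 row drawn overlaps Tnpo3. The Irf5 row that ends before Tnpo3 held fewer counts than Irf7 in every isotype library. The 0 of Irf7 in anti-CD40L replicate 3 cannot be drawn on a log axis.

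The signals that reach the IRFs and the genes they are known to act on were described from lists. Over all genes 6.47 percent were called lower and 2.93 percent higher under anti-CD40L than on wild-type isotype. Against the libraries labelled KO 5.04 percent were called lower and 1.8 percent higher. Each count below is to be read beside the share of its own comparison. Among 11 genes of the interferon receptors and the JAK-STAT signal, 5 were lower under anti-CD40L than on wild-type isotype and 0 higher, with a median log2 fold change of -0.39. Ifngr1, the ligand-binding chain of the interferon gamma receptor, was at 134, 95.1 and 129 CPM on wild-type isotype and 23.6, 34.4 and 33.1 CPM under anti-CD40L (log2 fold change -1.99, SE 0.19, adjusted p = 6.96e-05). The groups were far apart, and the libraries labelled KO, at 166, 124 and 108 CPM, lay with wild-type isotype. Ifngr2, the signalling chain, had a log2 fold change of -0.82 (adjusted p = 0.00815), and the kinase Jak1 of -0.38 (adjusted p = 0.0124). Stat2 and Ifnar1 were the other called genes. The count of lower genes was 2 without wild-type isotype replicate 3, and 3 without wild-type isotype replicate 1 or 2 or anti-CD40L replicate 1. Against the libraries labelled KO, Ifngr1 and Stat2 were lower, 4 genes without KO replicate 3 and 1 without any of the others except anti-CD40L replicate 2 or 3, which left 2.

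Of 13 tested genes of nucleic acid sensing, the signal above IRF3 and IRF7, 4 were lower under anti-CD40L than on wild-type isotype and 0 higher (median log2 fold change -0.25). Ddx58, which encodes the RNA sensor RIG-I, was at 24.0, 15.01 and 28.4 CPM on wild-type isotype and 2.87, 2.64 and 5.16 CPM under anti-CD40L (log2 fold change -2.74, SE 0.34, adjusted p = 0.000343). Zbp1, a sensor of Z-form nucleic acid, had a log2 fold change of -2.67 (adjusted p = 0.00334), and Ikbke, a kinase that phosphorylates IRF3 and IRF7, of -0.69 (adjusted p = 0.0182). Ifih1 was the remaining gene, and it is also counted among the interferon-induced genes below, so the lists share it. The count of lower sensing genes was 2 without anti-CD40L replicate 1 or 2 or wild-type isotype replicate 1. Against the libraries labelled KO 3 were lower, Ddx58, Zbp1 and Ifih1. Of 8 genes of the MyD88 signal above IRF5 and IRF7, 0 were called in any comparison. The 2 of smallest p under anti-CD40L were Irak4 (log2 fold change -0.47, adjusted p = 0.069) and Traf6 (0.24, adjusted p = 0.082).

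Among 26 tested interferon-induced genes, whose promoters classically carry ISRE elements, 6 were lower under anti-CD40L than on wild-type isotype and 0 higher, with a median log2 fold change of -0.69 against -0.01 over all genes. Their summed level was 621, 466 and 638 CPM on wild-type isotype, 338, 344 and 346 CPM under anti-CD40L, and 770, 470 and 447 CPM in the libraries labelled KO. All anti-CD40L libraries were below the rest, and KO replicate 1 was the highest of the 9, as it was for Irf1 and Irf7. Sp100, a nuclear body protein, was at 164, 137 and 153 CPM on wild-type isotype and 66.4, 82.6 and 73.6 CPM under anti-CD40L (log2 fold change -1.03, SE 0.13, adjusted p = 0.000334). Samd9l, a restriction factor for viruses, was at 43.9, 29.3 and 33.7 CPM on wild-type isotype and 11.8, 14.9 and 11.3 CPM under anti-CD40L (log2 fold change -1.48, SE 0.20, adjusted p = 0.000537). Ifit2, which binds viral RNA, had a log2 fold change of -0.85 (adjusted p = 0.0167). The count of lower genes fell to 2 without anti-CD40L replicate 1, wild-type isotype replicate 1 or wild-type isotype replicate 3, and to 3 without anti-CD40L replicate 3. Against the libraries labelled KO 7 were lower, with a count of 3 without KO replicate 1, 4 without anti-CD40L replicate 1 and 11 without KO replicate 3.

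Of 16 genes of antigen presentation linked to IRF1, 2 were lower under anti-CD40L than on wild-type isotype, the peptide transporter genes Tap2 (log2 fold change -0.53, adjusted p = 0.0332) and Tap1 (-0.54, adjusted p = 0.0468), and 0 were higher. The list summed to 4952, 4976 and 4933 CPM on wild-type isotype, 3643, 3920 and 4226 CPM under anti-CD40L, and 5368, 3797 and 3481 CPM in the libraries labelled KO. The anti-CD40L libraries were below wild-type isotype, and KO replicates 2 and 3 were low as well. The count of called genes was 8 without KO replicate 1, 5 without KO replicate 3, 1 without anti-CD40L replicate 2 or 3, and 0 without any one of the other libraries, so it rests on which libraries enter the fit.

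Of 12 tested DNA-binding partners of IRF4 and IRF8, 2 were lower under anti-CD40L than on wild-type isotype, the repressor Bcl6 (log2 fold change -0.80, adjusted p = 0.0234) and the AP-1 subunit Jund (-0.41, adjusted p = 0.0318), and 0 were higher. Over all genes 6.47 percent were called lower, and a count of 2 is too small to set the partners apart from that share. Both calls were lost without anti-CD40L replicate 1 or 3, or without wild-type isotype replicate 2, and 1 of them without wild-type isotype replicate 1 or 3. Batf2 and Batf3 were at 0 in all 9 libraries. Of 15 tested effector genes linked to IRF4, 5 were higher and 0 lower, with a median log2 fold change of 0.10.

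Tnfrsf4, the costimulatory receptor OX40, was at 112, 119 and 108 CPM on wild-type isotype and 156, 141 and 166 CPM under anti-CD40L (log2 fold change 0.44, SE 0.08, adjusted p = 0.00529). Il2ra, the interleukin 2 receptor alpha chain, was at 589, 620 and 677 CPM on wild-type isotype and 869, 813 and 832 CPM under anti-CD40L (log2 fold change 0.41, SE 0.08, adjusted p = 0.00701). In both genes the groups did not overlap. Hif1a, a driver of glycolysis, had a log2 fold change of 0.41 (adjusted p = 0.0145), and Hk2 and Tnfrsf18 were the other called genes. The count fell to 2 without anti-CD40L replicate 1 or wild-type isotype replicate 2, and to 3 without anti-CD40L replicate 3, wild-type isotype replicate 1 or 3, or KO replicate 2. Without anti-CD40L replicate 3 there was also 1 lower gene, Prdm1. Against the libraries labelled KO, 4 were higher, Tnfrsf4, Hif1a and Ctla4 (log2 fold change 1.06, adjusted p = 0.014) having the smallest p, and 1 was lower, Prdm1 (-1.53, adjusted p = 0.0356). The 4 became 2 without KO replicate 2 or anti-CD40L replicate 1, and Prdm1 was called in none of the fits without 1 library except that without anti-CD40L replicate 3. Prdm1, which encodes the repressor BLIMP1, was a low gene at 0.986 to 2.1 CPM under anti-CD40L.

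Of 17 genes of the T cell receptor and NF-kB signal that induces Irf4, 2 were lower under anti-CD40L than on wild-type isotype, Plcg1 (log2 fold change -0.49, adjusted p = 0.01) and Lat (-0.47, adjusted p = 0.0189), and 0 were higher, with a median of 0.06. This count, too, does not set the list apart from the 6.47 percent of all genes called lower. Both encode parts of the proximal T cell receptor signal. Both calls were lost without anti-CD40L replicate 1, and 1 of them without anti-CD40L replicate 3 or wild-type isotype replicate 2 or 3. Of 14 tested cofactors and regulators of IRFs, Trim21, an interferon-induced ubiquitin ligase, had a log2 fold change of -1.20 (adjusted p = 0.00389), and Irf2bpl, a relative of the IRF2-binding proteins, of -0.41 (adjusted p = 0.0393). The latter call held only without KO replicate 3 or without anti-CD40L replicate 3, among the fits that left out 1 library. Without anti-CD40L replicate 3 there were also 2 higher genes in this list, Cops5 and Rock2, of which Rock2 was also called without KO replicate 1 or 3. In none of the 9 lists was a gene called between the libraries labelled KO and wild-type isotype by edgeR.

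**Figure D4:**
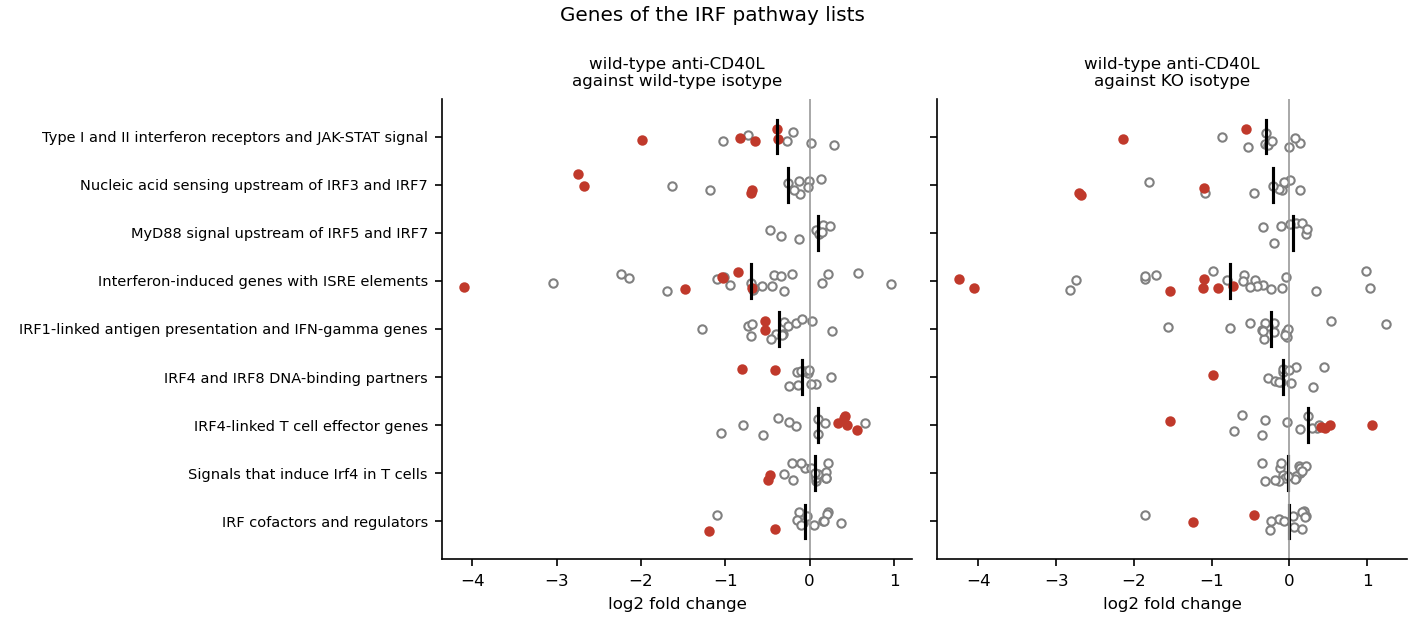
Log2 fold change of every tested gene of the 9 lists (x axis) under anti-CD40L, against wild-type isotype on the left and against the libraries labelled KO on the right, 1 list per line, where a black line is the list's median. Filled points have an adjusted p under 0.05. In both panels the called interferon and sensing genes lie left of 0. The called effector genes lie right of 0, except Prdm1 in the right panel.

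Markers of other cells moved with the fall of the interferon-linked members in part. The dendritic cell sum did not, at 3.33 to 6.18 CPM on wild-type isotype and 6.09 to 9.36 CPM under anti-CD40L. The sums of natural killer cell markers overlapped, at 8.46 to 27.0 and 4.97 to 15.3 CPM. In neither list was a gene called. The 10 monocyte, macrophage and neutrophil markers summed to 80.8 to 92.2 CPM on wild-type isotype, 46.1 to 52.4 CPM under anti-CD40L and 57.4 to 105 CPM in the libraries labelled KO, nearly all of it Ctss, a protease gene also induced by interferon. Of the 3 markers tested, Ctss and Itgam were lower under anti-CD40L than on wild-type isotype. S100a8 and S100a9 were at 0 in all 6 wild-type libraries. Of 11 tested B cell markers, 2 were lower under anti-CD40L than on wild-type isotype and 0 higher. The list's median log2 fold change was -0.03 there and 0.03 for the KO label. One of the 2 was Fcer2a, at 13.1, 16.4 and 5.51 CPM on wild-type isotype against 0.447, 1.52 and 0 CPM under anti-CD40L. Its values under the KO label spanned 0.29 to 0.83 CPM. For anti-CD40L against wild-type isotype with 1 library left out, 1 or 2 genes were called lower in the B cell list. The same range held for the monocyte, macrophage and neutrophil list. For KO against wild-type isotype, Fcer2a alone was called lower, and only without anti-CD40L replicate 2 or 3. The part of these cells in the fall of Irf1, Irf7 and Irf9 was not tested.

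For 4 members the genes of most similar pattern were found by Pearson's r of log2 CPM over the 9 libraries, among 7940 genes with a mean of at least 10 CPM. These values describe libraries that share their groups and depths. Irf4 was closest to Dnajb6 (r = 0.96), Rrn3 (0.959), Lsm2 (0.957) and Dusp5 (0.955), of which Dusp5, a phosphatase of ERK, had 126 ± 19.8 CPM on wild-type isotype, 263 ± 30.6 CPM under anti-CD40L and 144 ± 6.76 CPM in the libraries labelled KO (SD, n = 3). Irf1 was closest to the class I gene H2-Q4 (0.979) and to Zbp1 (0.974), then Gimap1 and Tmem229b. Irf7 was closest to Vim (0.983), Atxn7l1, Heatr5a and Arid4a. Irf8 was closest to Ndrg1 (0.941) and Tnfsf14 (0.918), then Crtc1 and Zrsr2. Tnfsf14, the ligand LIGHT, was at 20.3 ± 2.60 CPM on wild-type isotype, 17.5 ± 6.34 CPM under anti-CD40L and 41.0 ± 1.20 CPM in the libraries labelled KO. Among the members themselves, r was 0.923 between Irf1 and Irf9 and 0.829 between Irf1 and Irf7. Irf4 ran opposite to them, with r of -0.865 to Irf1 and -0.861 to Irf7.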

How the data were processed

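Naive CD4+ T cell RNA was sequenced from 9 libraries, grouped by title and treatment label. Expected counts, not normalized, were deposited by the authors for 42361 RefSeq transcripts, and every value was a multiple of 0.5. The submitters' processing notes list CASAVA 1.8.2, HISAT2 2.1.0 and mm10. How reads were counted, and whether by strand, was not given in the sources used here, which leaves overlapping genes uncertain.

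Symbols came from RefSeq GRCm38.p6 for 42203 rows and from GENCODE vM21 for 65, and 93 rows had none. The row of highest total was kept per gene. The design assumed whole counts, and fractional ones were rounded up. edgeR 4.0.16 in R 4.3.3 (filterByExpr, TMM, robust quasi-likelihood F test, 1 term per group, all 9 libraries) tested 11244 genes, with Benjamini-Hochberg adjustment at 0.05. The common biological coefficient of variation was 0.127. Correlations used a prior count of 2. CPM per kilobase used the length of the row's transcript in GENCODE vM21.

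There were 17 alternatives for each member: DESeq2 1.42.0, limma 3.58.1 voom with quality weights, other scaling, filtering and rounding, summed transcripts, the replicate block, only the compared groups, and each library left out. Irf5 had 1 more, another row. The members and lists were chosen with earlier results of these data known. Text names all members, up to 3 called genes per list, direction and comparison (otherwise the 2 of smallest p), the 4 most similar genes of 4 members, and markers. Further genes named to complete a count of 5 or fewer were chosen after their values were seen. Some genes that this rule covers are not reported here.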

Additional observations from a re-analysis of the deposited data

How the results depend on the processing

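Of 411 fold changes of single members under an alternative, 372 kept their direction and their side of the threshold, 14 lost a call, 7 gained one and 18 changed sign. All 18 were uncalled in both analyses. Under limma-voom these were Irf3 for KO against wild-type isotype (log2 fold change 0.027), and Irf2 (0.12) and Irf5 (0.10) for anti-CD40L against KO. The other 15 came from leaving out 1 library, where log2 fold changes for KO against wild-type isotype ran from -0.51 to 0.18 (Irf1), -0.12 to 0.083 (Irf3), -0.015 to 0.13 (Irf4), -0.062 to 0.93 (Irf7) and -0.33 to 0.089 (Irf9). For anti-CD40L they ran from -0.42 to 0.086 (Irf5) against wild-type isotype, and from -0.089 to 0.10 (Irf2) and -0.34 to 0.17 (Irf5) against KO. The number of members called was 2 to 4 with 1 library left out for anti-CD40L against wild-type isotype, 3 to 4 against the libraries labelled KO, and 0 for KO against wild-type isotype, where DESeq2, limma-voom and the fit without the low-count filter each called 1 member, Irf8. Over all genes the count for anti-CD40L against wild-type isotype was 1630 with DESeq2, 1695 without the filter and 486 to 1342 with 1 library left out, being lowest without anti-CD40L replicate 1 or any wild-type isotype replicate (486 to 546). Against the libraries labelled KO it was 1219, 1307 and 346 to 1021 (346 without KO replicate 2, 447 without KO replicate 1 and 448 without anti-CD40L replicate 1), with 1461 for limma-voom and 481 with only the compared groups. For KO against wild-type isotype it was 39, 102 and 0 to 2, with 32 for limma-voom and 3 with only the compared groups. Without division by length, Irf4 stood 12.6 times above the next member in wild-type isotype libraries, against 5.38 times per kilobase. The cause of these changes was not tested.

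Replicate numbers were not shown to pair the libraries: deviations of same-numbered wild-type libraries correlated at 0.179, 0.0842 and 0.0757, each library best with its own number, and those with the KO group at -0.149 to 0.0609. With the replicate block the number of members called under anti-CD40L against wild-type isotype was 3, Irf9 having an adjusted p of 0.0501, and 956 genes were called. On the rows used, Irf7 had the fewest counts of the members, with 0 in anti-CD40L replicate 3, which limits the precision of its fold change.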
